A study of Mus musculus with 10 samples.

Results

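Mature outer hair cells (OHCs) of the mouse cochlea were compared with supporting cells (SCs) by bulk RNA-seq, on 4 of the 10 libraries of the series: 2 OHC libraries, from days 21 and 22, and 2 SC libraries, from days 27 and 26. Each library was taken by the sample number in the name of its count file, since 4 of the 10 sample records, SC day 26 among these 4 libraries, carry the file of another sample. The study isolated fluorescent cells by hand from pronase-digested cochleae, so that each library is a pool of picked cells, and also sequenced OHCs at P7, inner hair cells (IHCs, P74) and hair cells converted from SCs. OHCs came from mice heterozygous for a prestin-YFP knock-in (YFP/+), so that the picked fluorescence is a fusion to prestin itself. SCs, that is Deiters' and pillar cells, came from Fgfr3iCreER+ mice that also carried the Cre reporter Rosa26-CAG-loxP-stop-loxP-tdTomato+ and were given tamoxifen, and are named by the days in the titles, as are the OHCs. Thus the OHC mice carried a fused prestin allele and no Cre, whereas the SC mice carried a Cre, a red reporter and tamoxifen exposure. IHCs were picked by tdTomato from Pval-Cre+ mice with the same reporter and no tamoxifen. Converted cells (P33) came, per the study's supplement, from tamoxifen-treated Fgfr3iCreER+ mice with the same reporter, an Atoh1-HA transgene and Chrna9-EGFP. For P7 OHCs the sources differ: per the labels they too carried prestin-YFP, whereas the study's supplement gives a tamoxifen-dependent prestin Cre with the tdTomato reporter and tamoxifen in the first days after birth. The sample numbers of the OHC libraries form 1 run with those of the IHCs, and those of the SC libraries another with the P7 OHCs and converted cells, so a difference between the 2 runs of numbers and one between OHCs and SCs cannot be told apart. For this reason the levels in IHCs and P7 OHCs are given beside many of the results.

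OHCs amplify sound-evoked motion: prestin, a motor protein of the lateral membrane, changes the length of the cell with its voltage, a hair bundle of actin-filled stereocilia opens the transduction channels, and cholinergic efferent nerve endings inhibit the cell through calcium and potassium channels. Deiters' and pillar cells hold the OHCs in place with a stiff cytoskeleton, take up potassium, are joined by gap junctions, and secrete matrix. Both descend from a common pool of progenitors in which Notch signalling keeps SCs from becoming hair cells.

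The 4 libraries held 19483713 and 21365585 reads on genes in OHCs and 22597688 and 40518766 in SCs. Of the aligned reads, 61.8% and 59.6% lay outside counted genes in OHCs and 31.5% and 35.7% in SCs. The share was 47.9% to 48.4% in IHCs, and 46.8% and 47.9% in converted cells. The 10 genes with the most reads took 41.3% and 22.8% of the OHC reads and 31.8% and 30.2% of the SC reads, and OHC day 21 had the lowest scaling factor of the 4 (0.583, against 0.930 to 1.11). Across 23415 genes, Spearman's rho was 0.829 between the OHC libraries, 0.831 between the SC libraries and 0.667 to 0.714 across cell types. Xist was at 0.882 and 841 CPM (reads scaled to a common library total) in OHCs and at 2.31 and 1127 CPM in SCs, so each cell type had 1 library with and 1 without high Xist. The part of read placement, scaling and sex in the differences below was not tested, except where values without a library are given.

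Levels are CPM scaled by the trimmed mean of M values (TMM), and pairs of values always follow the order day 21, day 22 for OHCs and day 27, day 26 for SCs. Differences are log2 fold changes with their standard errors, and calls are edgeR quasi-likelihood tests at a Benjamini-Hochberg false discovery rate (FDR) under 0.05 in a fit to all 10 libraries. Of 16891 genes tested, 678 were higher in OHCs (4.01%) and 676 lower (4.0%). These shares are the background for the counts of each list below. The called differences were large, with a median of 6.91 among the higher and -7.22 among the lower genes, and none was below 1.76 in size. In 676 of the 678 higher genes and in all 676 lower genes the OHC and SC libraries did not overlap, a state that held above in 25.2% and below in 25.3% of all genes tested. Many were close to absence in the other cell type: 66 higher genes had no read in either SC library and 88 lower genes none in either OHC library. A single gene with 2 libraries against 2 cannot reach an exact permutation p under 0.333, so every call leans on the spread shared across genes. Without OHC day 21 the counts were 448 higher and 302 lower, the lowest of the 4 fits that each left 1 library out.

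**Figure D1:**
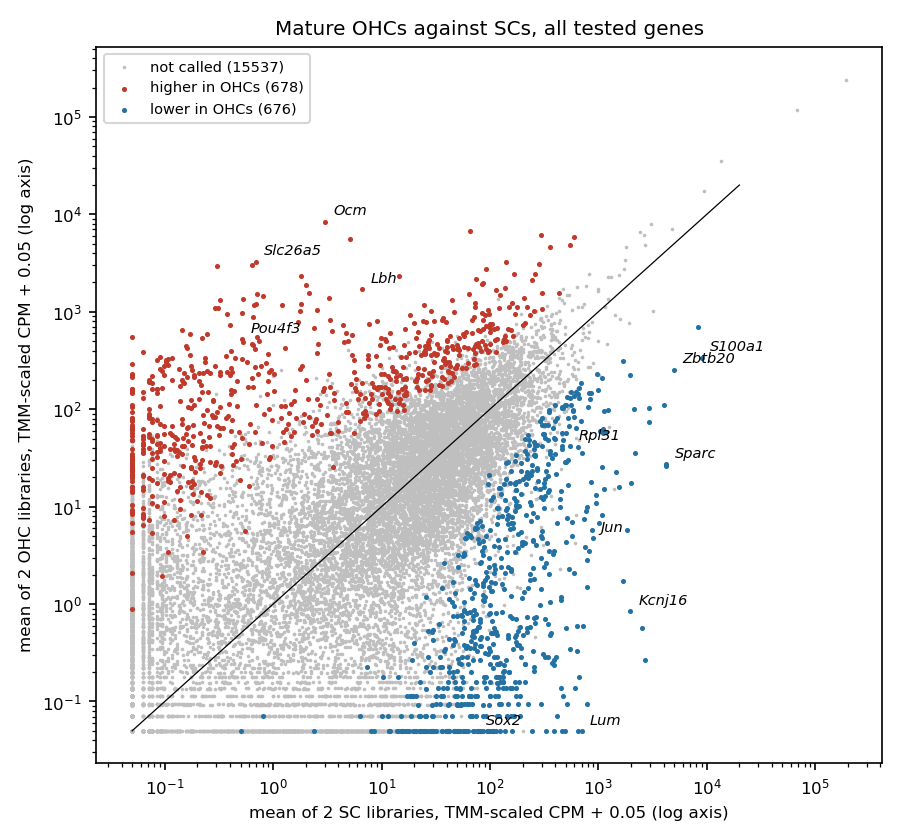
Mean level in 2 SC libraries (x axis) against mean level in 2 OHC libraries (y axis), in TMM-scaled CPM plus 0.05 on log axes, for 16891 genes. Red points are the 678 genes called higher in OHCs, blue points the 676 called lower and grey points the rest; the line marks equal levels.

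Prestin (Slc26a5, chr5:21316473-21371422 on the minus strand of mm9) checked the labels, since its fusion to YFP was the sign by which OHCs were picked. It stood at 3789 and 2749 CPM in OHCs and at 0.755 and 0.531 CPM in SCs, and at 1.31 and 0.859 CPM in IHCs. Because it chose the cells it is given as a description.

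Of the other 11 OHC marker genes, 9 were higher in OHCs, against 4.01% of all genes. Over the whole list of 12, prestin included, the median difference was 9.95, where the median of all tested genes was 0. Oncomodulin (Ocm, chr5:144780673-144787539, minus strand, mm9), a small calcium buffer of OHCs, had 7562 and 9278 CPM in OHCs and 2.71 and 3.16 CPM in SCs. The OHC libraries lay far above both SC libraries, with a difference of 11.48 ± 0.87 (FDR 3.08e-05). Stereocilin (Strc), which ties stereocilia to each other and to the tectorial membrane, reached 4185 and 1878 CPM against 0.533 and 0.637 CPM (12.32 ± 0.76, FDR 8.48e-06). Strip2, listed under its older name Fam40b, had 2517 and 2121 CPM against 1.82 and 1.7 CPM (10.36 ± 0.52, FDR 4.23e-06). Among these genes the IHC libraries lay in between, at 239 and 68.6 CPM for Ocm, 143 and 134 CPM for Strc and 115 and 92.8 CPM for Fam40b. Lmod3, a leiomodin that seeds actin filaments, differed from this order: it had 558 and 344 CPM in OHCs, 0.622 and 0.584 CPM in SCs, against 0.135 and 0.172 CPM in IHCs.

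A pair of OHC markers did not reach a call. Ikzf2 (Helios), a transcription factor of maturing OHCs, had 502 and 491 CPM in OHCs, but SC day 26 held 296 CPM and SC day 27 only 39.9 CPM (1.56 ± 0.85, FDR 0.262). Both OHC libraries were still above both SC libraries. Calbindin (Calb1) was at 0.529 and 23.9 CPM in mature OHCs and at 1.33 and 1.59 CPM in SCs, with overlap between the groups, while P7 OHCs held 2201 and 2139 CPM.

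**Figure D2:**
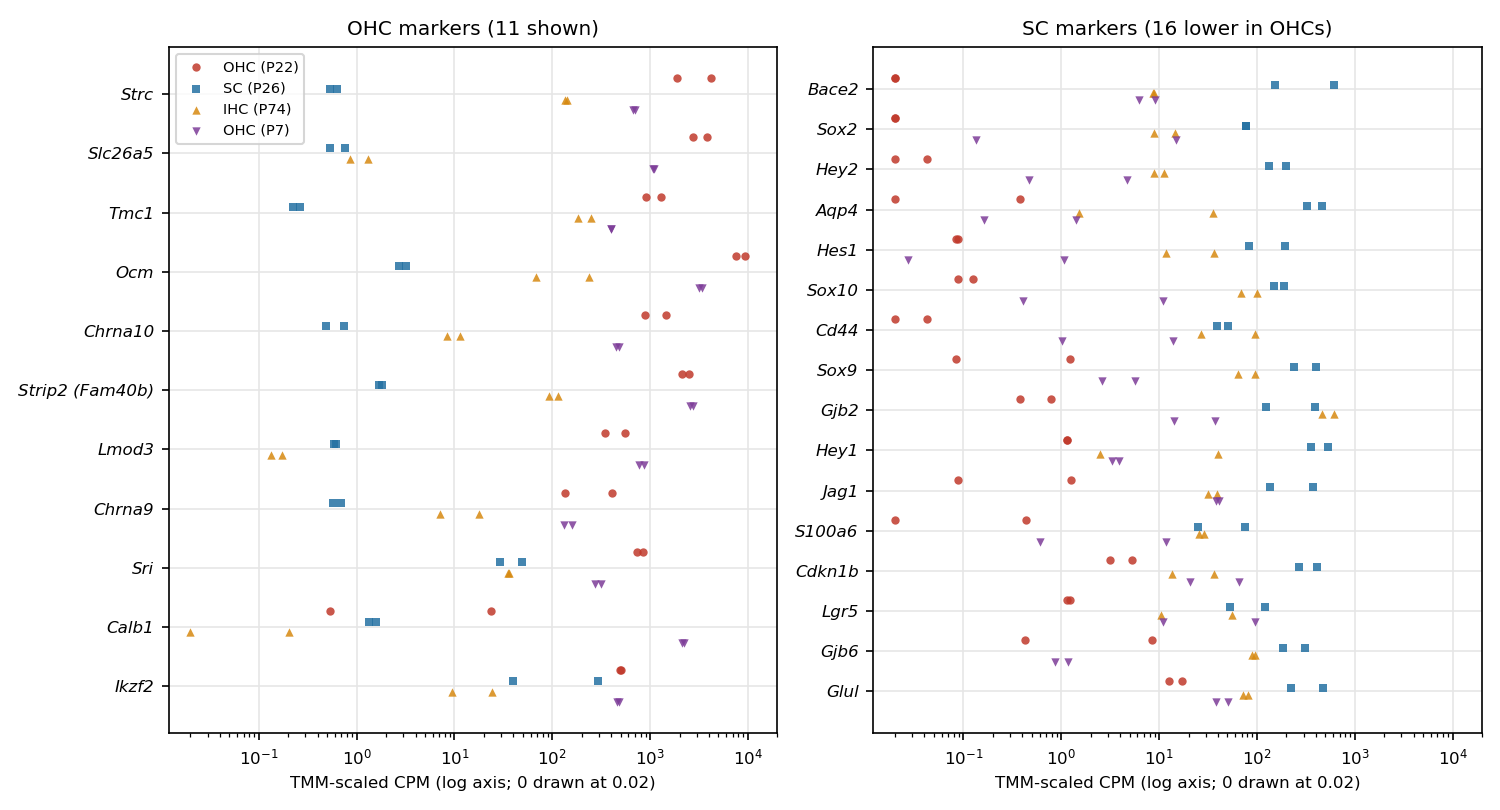
Levels per library, in TMM-scaled CPM on a log axis (0 is drawn at 0.02), of 11 OHC markers (left) and of the 16 SC markers called lower in OHCs (right), 2 points for each of 4 cell types. The OHC (P22) points are to the right of all SC points for 10 of 11 OHC markers, and to the left of them for all 16 SC markers.

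To show the sequence at the start of genes on both sides of the comparison, 5 promoters of 300 bases (250 before and 50 after the start) are printed from RefSeq, build GRCm38.p6. They belong to prestin and oncomodulin, the subunit Chrna9 of the OHC acetylcholine receptor, and the Notch target Hey2 and Notch ligand Jag1, both lower in OHCs. A set of 4 motifs was searched on both strands, and matches are in capitals: CAGCTG (an E-box), GTTGCC (an RFX half-site), ATTGTT (a SOX core) and GTGGGAA (the core bound by RBPJ, the DNA-binding protein of Notch). No motif overlaps another.
Slc26a5, chr5:21865555-21865854, minus strand: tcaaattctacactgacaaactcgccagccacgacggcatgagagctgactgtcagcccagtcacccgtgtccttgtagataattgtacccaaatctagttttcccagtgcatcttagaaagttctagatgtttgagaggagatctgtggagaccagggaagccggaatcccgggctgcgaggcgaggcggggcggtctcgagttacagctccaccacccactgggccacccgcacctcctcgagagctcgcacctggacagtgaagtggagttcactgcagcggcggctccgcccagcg
Ocm, chr5:144050560-144050859, minus strand: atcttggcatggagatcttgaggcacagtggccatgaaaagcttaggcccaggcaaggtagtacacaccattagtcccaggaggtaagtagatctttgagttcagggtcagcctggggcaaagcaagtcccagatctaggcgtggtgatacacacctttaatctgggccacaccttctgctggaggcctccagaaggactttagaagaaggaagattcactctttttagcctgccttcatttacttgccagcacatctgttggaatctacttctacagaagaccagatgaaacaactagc
Chrna9, chr5:65966874-65967173, plus strand: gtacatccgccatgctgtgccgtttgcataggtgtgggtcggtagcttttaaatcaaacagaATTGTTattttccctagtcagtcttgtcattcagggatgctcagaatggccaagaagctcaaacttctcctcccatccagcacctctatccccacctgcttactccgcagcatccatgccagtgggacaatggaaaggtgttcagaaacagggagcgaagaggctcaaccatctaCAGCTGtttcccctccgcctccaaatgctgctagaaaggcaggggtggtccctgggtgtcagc
Hey2, chr10:30842734-30843033, minus strand: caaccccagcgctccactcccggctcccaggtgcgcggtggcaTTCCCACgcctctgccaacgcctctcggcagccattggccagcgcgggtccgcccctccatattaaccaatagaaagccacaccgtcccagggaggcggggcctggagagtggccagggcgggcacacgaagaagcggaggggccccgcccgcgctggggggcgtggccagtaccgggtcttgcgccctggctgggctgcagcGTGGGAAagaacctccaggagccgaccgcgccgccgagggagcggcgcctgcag
Jag1, chr2:137116471-137116770, minus strand: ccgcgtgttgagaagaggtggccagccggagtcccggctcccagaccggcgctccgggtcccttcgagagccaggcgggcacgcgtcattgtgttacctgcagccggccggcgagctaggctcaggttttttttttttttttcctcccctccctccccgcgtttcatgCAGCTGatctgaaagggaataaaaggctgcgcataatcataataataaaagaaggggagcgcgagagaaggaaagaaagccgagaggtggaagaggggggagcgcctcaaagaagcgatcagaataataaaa

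Hey2 held GTGGGAA 2 times, once on each strand, a motif found in 6.38% of all 32851 promoters in the table. Chrna9 held CAGCTG and ATTGTT, which occur in 16.3% and 10.7% of all promoters, and Jag1 held CAGCTG. Slc26a5 and Ocm held none of the 4 in this window. A comparison of motif shares between called genes was void, as 76.0% of the higher and 71.6% of the lower genes matched a promoter in the table, under the 80% set for it.

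Of 16 pan-hair-cell markers, 14 were higher in OHCs and none lower, with a median difference of 7.27. Hair bundle genes were also mostly higher. Of 14 genes of the mechanotransduction complex and tip link, 11 were higher in OHCs and 3 were not called (median difference 9.57). Clarin-1 (Clrn1), needed for hair bundle upkeep, had 463 and 393 CPM in OHCs and 0.0888 and 0.133 CPM in SCs, that is 2 and 5 reads (11.82 ± 0.77, FDR 8.48e-06). Loxhd1, a stereociliary membrane protein, had 1693 and 949.7 CPM against 0.178 and 0.372 CPM (12.17 ± 0.79, FDR 8.48e-06). The channel subunit Tmc1 stood at 1302 and 898 CPM against 0.222 and 0.266 CPM (12.10 ± 1.51, FDR 0.000886). Its partners Lhfpl5 and Tmie and the upper tip-link cadherin Cdh23 were also higher, by 9.61 ± 0.86, 10.26 ± 1.03 and 9.95 ± 0.88.

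The lower tip-link cadherin Pcdh15 did not follow Cdh23. It was at 171 and 168 CPM in OHCs and at 128 and 269 CPM in SCs, with overlapping groups and a difference of -0.23 ± 0.54 (FDR 0.826). IHCs, at 189 and 184 CPM, had much the same level as OHCs. Tmc2, the channel subunit of young hair cells, was at 0 and 6.40 CPM in OHCs and at 0.0888 and 0.0266 CPM in SCs and was not called.

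Among 32 stereocilia genes, 21 were higher in OHCs and 1 was lower, with a median of 5.54. Homer2, a scaffold protein, reached 1454 and 1619 CPM against 0.711 and 0.611 CPM (11.18 ± 0.62, FDR 5.63e-06). The shaft-connector phosphatase Ptprq was at 1422 and 1364 CPM against 3.38 and 3.05 CPM (8.76 ± 0.45, FDR 4.23e-06), and the actin bundler espin (Espn) at 354 and 314 CPM against 0.133 and 0.239 CPM (10.74 ± 1.0, FDR 0.000128). The IHC libraries had as much Ptprq as the OHCs, 1534 and 1366 CPM. Myosin XVA (Myo15), the motor that carries proteins to stereocilia tips, was among the 10 called genes with the most OHC reads, at 7602 and 3470.0 CPM against 8.71 and 1.46 CPM.

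The 1 lower gene, Espnl, rests on few reads: it had 0 and 1 read in OHCs and 14 and 33 in SCs (FDR 0.0407), while P7 OHCs held 647 and 785 CPM. It lost its call without OHC day 21, OHC day 22 or SC day 26 (FDR 0.0776 to 0.140).

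**Figure D3:**
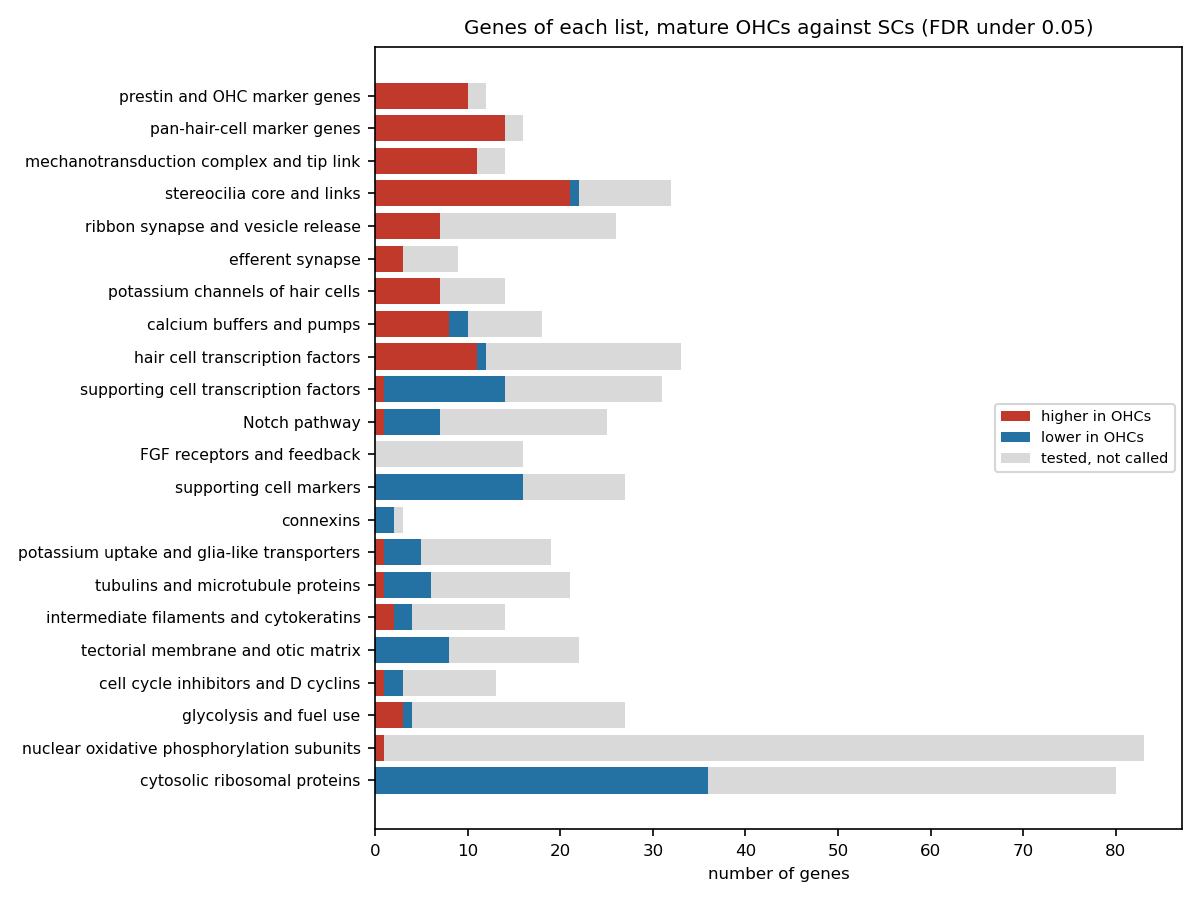
Number of tested genes in each of 22 gene lists (x axis) that were higher in OHCs (red), lower in OHCs (blue) or not called (grey), at an FDR under 0.05. Red dominates the hair bundle and hair cell marker lists, with 11 of 14 mechanotransduction genes, and blue the SC markers, with 16 of 27.

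Every called gene of the efferent and of the ribbon synapse list was higher in OHCs. The efferent synapse list had 3 higher genes among 9 tested, and they were the core of the OHC inhibitory synapse: the acetylcholine receptor subunits Chrna10 and Chrna9 and the calcium-activated potassium channel Kcnn2 (SK2). Chrna10 had 1466 and 894 CPM against 0.489 and 0.744 CPM (10.88 ± 0.72, FDR 9.82e-06), Chrna9 405 and 134 CPM against 0.577 and 0.691 CPM (8.72 ± 0.87, FDR 0.000201), and Kcnn2 228 and 203 CPM against 0.0888 and 0.186 CPM (10.52 ± 1.06, FDR 0.000208). In each of the 3, both OHC libraries were far above all SC and IHC libraries, and the difference from IHCs was called too (FDR 0.00101 to 0.0303). The other 6 tested genes, subunits and clustering proteins of the muscle-type receptor and the receptor Gabbr1, were not called.

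At the afferent ribbon synapse, 7 of 26 genes were higher and none lower (median 4.48). Otoferlin (Otof), the calcium sensor of vesicle release, had 338 and 490.2 CPM in OHCs against 0.622 and 0.637 CPM in SCs (9.35 ± 0.56, FDR 7.86e-06). IHCs held more, 5009.9 and 4216 CPM, and the OHC libraries were lower than IHCs by 3.48 ± 0.43 (FDR 0.00413). The calcium channel Cacna1d was at 3346 and 1263 CPM against 28.2 and 0.531 CPM (7.33 ± 1.44, FDR 0.0106). Rimbp2, which links calcium channels to release sites, had 20.9 and 22.6 CPM and no read in SCs, at least 204-fold higher against a floor of 3 reads per library. The glutamate transporter Slc17a8 was called higher at 52.5 and 35.4 CPM against 1 read in each SC library, a ratio with a counting interval of 366 to 10919, but IHCs held 1907 and 1762 CPM. Without SC day 27 the ribbon count became 11 in place of 7.

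Of 14 tested potassium channel genes, 7 were higher in OHCs and none lower. Kcna10 had 501 and 299.6 CPM against 0.400 and 0.319 CPM (10.11 ± 0.68, FDR 1.10e-05), and the BK channel Kcnma1 479 and 162 CPM against 1 read in each SC library (FDR 0.000193). With so few reads the ratio of Kcnma1 is known only within a 95% counting interval of 2666 to 79531.

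Calcium-handling genes moved in both directions, with 8 of 18 higher and 2 lower. Besides Ocm, parvalbumin (Pvalb) was higher, at 91.4 and 153 CPM against 1.33 and 1.7 CPM (6.32 ± 0.65, FDR 0.000234), as was calretinin (Calb2), at 43.6 and 44.1 CPM against 0.622 and 0.478 CPM. Calretinin was at 1044 and 1369.9 CPM in IHCs.

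The plasma membrane pump Atp2b2 (PMCA2) had 3026 and 1362 CPM in OHCs and an uneven 6.17 and 144 CPM in SCs (4.87 ± 1.11, FDR 0.0222), and its call was lost without OHC day 21 (FDR 0.0631). The SC side held the S100 proteins. S100a1 had 7255 and 10808 CPM in SCs, against 353 and 324 CPM in OHCs (-4.74 ± 0.66, FDR 0.00159), with IHCs at 1232 and 1079 CPM and P7 OHCs at 809 and 791 CPM. S100b had 15.9 and 98.8 CPM in SCs, against 0.705 and 0.337 CPM in OHCs (FDR 0.0267). It lost its call without OHC day 21, OHC day 22 or SC day 26 (FDR 0.0936 to 0.0968).

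Transcription factors were called in both directions. Of 33 tested factors on the hair cell list, 11 were higher in OHCs, 1 was lower and 21 were not called (median 1.53). Pou4f3, which hair cells need to survive, had 484 and 559.7 CPM against 0.355 and 0.584 CPM (10.09 ± 0.65, FDR 8.48e-06), and Gfi1 203 and 440.4 CPM against 0 and 0.106 CPM (12.25 ± 1.45, FDR 0.000624). Both had similar levels in IHCs, 404 and 420.4 CPM for Pou4f3 and 312 and 268 CPM for Gfi1. Barhl1 was higher by 7.64 ± 1.16, Mlxip by 4.95 ± 0.66 and Sall3 by 4.16 ± 0.82. Without SC day 27 the count of higher factors fell from 11 to 6.

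Several factors tied to hair cells were also read in SCs. Isl1 had 281 and 236 CPM in OHCs and 143 and 120.3 CPM in SCs (0.97 ± 0.69, FDR 0.390), with no overlap. Sall1 was at 725 and 699 CPM in OHCs, and at 12.8 CPM in SC day 27 but 393 CPM in SC day 26 (FDR 0.301). Sall2, of the same family, was the lower gene, at 0.970 and 3.50 CPM in OHCs and 691 and 390.3 CPM in SCs (-7.89 ± 1.08, FDR 0.00154). Atoh1, which starts hair cell fate in the embryo, had no read in either OHC library and 6 and 72 reads in SCs, and was not called (FDR 0.0541).

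**Figure D4:**
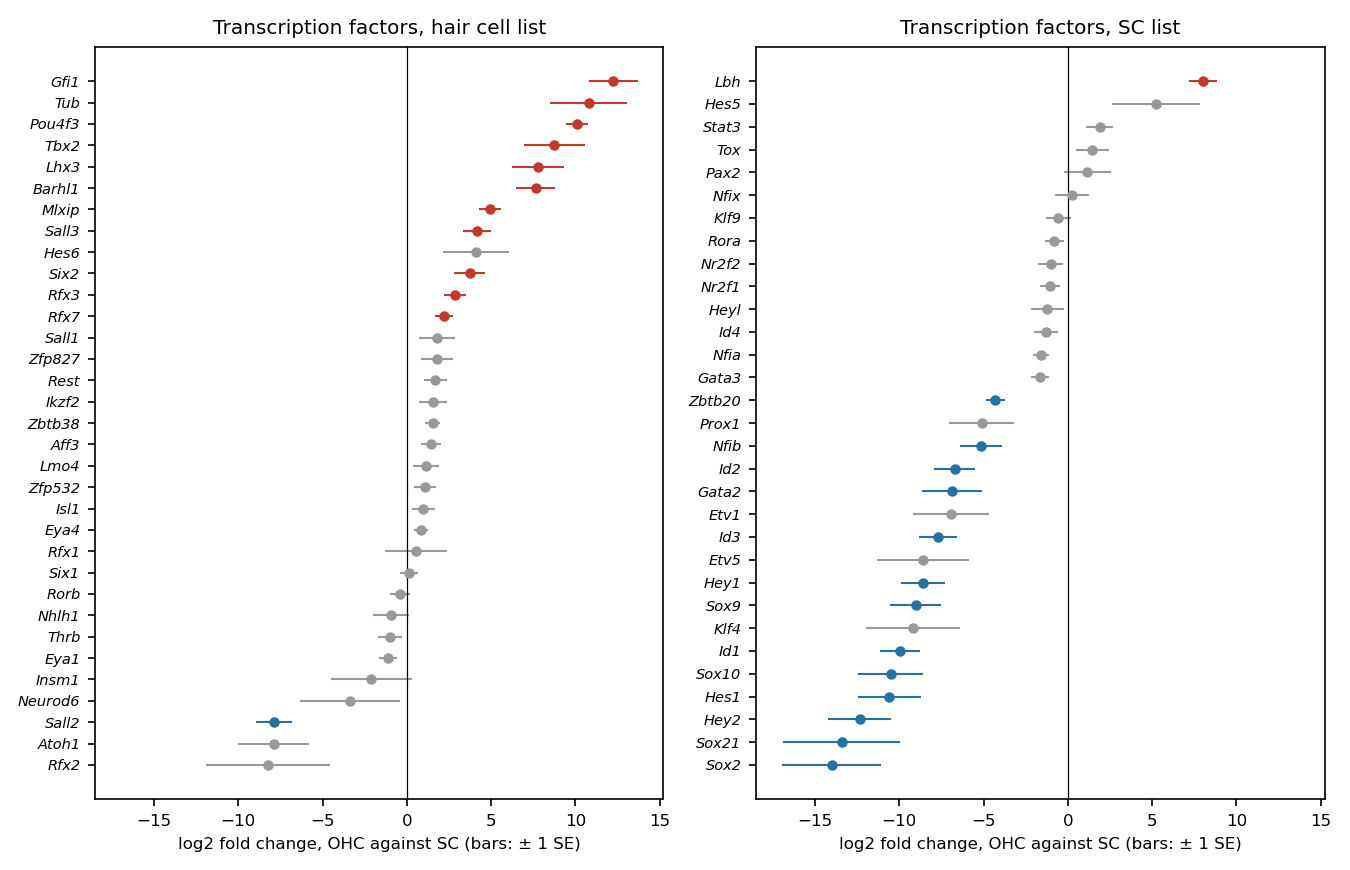
Log2 fold change between OHCs and SCs (x axis, bars ± 1 standard error) of 33 tested factors on the hair cell list (left) and 31 on the SC list (right); red and blue mark genes called higher and lower in OHCs, grey those not called. The SC list has 13 blue points and 1 red one, Lbh.

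Of 31 tested factors on the SC list, 13 were lower in OHCs and 1 was higher, with a median of -5.11. Sox2, a progenitor factor kept by SCs (chr3:34548927-34551383, plus strand, mm9), had 77.5 and 77.1 CPM in SCs and no read in either OHC library, at least 396-fold lower. Its FDR of 0.0179 rose to 0.0640 without OHC day 21 and to 0.0566 without OHC day 22. Sox9 had 402 and 242 CPM in SCs, against 1.23 and 0.0842 CPM in OHCs (-9.02 ± 1.51, FDR 0.00465), and Sox10 190.2 and 148 CPM against 0.0882 and 0.126 CPM (-10.52 ± 1.92, FDR 0.00721). Id1 and Id3, inhibitors of basic helix-loop-helix factors, were lower by 9.95 ± 1.20 and 7.69 ± 1.12. Zbtb20, a repressor with 5231 and 4781 CPM in SCs, had 132 and 377 CPM in OHCs (-4.30 ± 0.59, FDR 0.00155).

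Lbh went the other way. This transcription cofactor had 1588 and 1834 CPM in mature OHCs and 4.09 and 9.03 CPM in SCs (8.02 ± 0.81, FDR 0.000208). IHCs had 2.56 and 6.19 CPM, near the SC level, and the difference between OHCs and IHCs was 8.61 ± 0.83 (FDR 0.00101). P7 OHCs held 86.9 and 89.0 CPM, between SCs and mature OHCs. Gata3, at 331 and 209.6 CPM in OHCs and 857 and 833 CPM in SCs (FDR 0.0952), and Prox1, at 1.23 and 0.758 CPM against 14.7 and 53.7 CPM (FDR 0.132), were not called, although the groups did not overlap in either.

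In the Notch pathway, 6 of 25 genes were lower in OHCs and 1 was higher, against 4.0% lower and 4.01% higher among all genes. The count of 1 higher gene is near that share. The lower genes were the ligand Jag1, the receptor Notch1 and the targets Hes1, Hey1, Hey2 and Nrarp. Jag1 had 136 and 377 CPM in SCs, against 0.0882 and 1.26 CPM in OHCs (-8.48 ± 1.21, FDR 0.00191), and Notch1 153 and 46.5 CPM against 0.0882 and 0.126 CPM (-9.76 ± 1.47, FDR 0.00253). Hey2, whose promoter is shown above, had 198 and 134 CPM in SCs and 0 and 1 read in OHCs (FDR 0.00247), a ratio with a 95% counting interval of 1046 to 230150. Hey1 had 537 and 359 CPM against 1.15 and 1.14 CPM (-8.61 ± 1.29, FDR 0.00240). Every SC library was above every OHC library for each of the 6.

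The ligand Jag2 was higher in OHCs, at 184 and 29.9 CPM against 0.133 and 0.691 CPM (7.97 ± 1.27, FDR 0.00364). Components of the core machinery were not called: Rbpj had a difference of -0.32 ± 0.87 and Adam10 of -1.18 ± 0.87. Nrarp, with no OHC read and 186 and 26.3 CPM in SCs, lost its call without OHC day 21, OHC day 22 or SC day 27 (FDR 0.0535 to 0.0748). In P7 OHCs, which share the SC run of sample numbers, Hey1 was at 3.89 and 3.30 CPM, Hes1 at 1.07 and 0.0273 CPM and Jag1 at 37.8 and 40.8 CPM.

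No gene of the FGF receptor and feedback list passed the edgeR test among 16 tested. An unadjusted edgeR p under 0.05 was found in 11 of them, against 4340 of all 16891 genes. DESeq2 called 3 higher and 9 lower, against 2094 and 2066 of all 16891 genes. Fgfr3, whose locus drives the Cre that marked the SCs, had 167 and 312 CPM in SCs, against 4.41 and 1.90 CPM in OHCs (-6.26 ± 1.87, FDR 0.0667). The feedback inhibitor Spry2 had 249.5 and 362 CPM in SCs, against 0 and 8.04 CPM in OHCs (FDR 0.0534).

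Of 27 SC markers, 16 were lower in OHCs and none higher, with a median of -6.31. Their summed level was 4479 and 6178 CPM in SCs, against 106 and 74.9 CPM in OHCs, against 200 and 747 CPM in P7 OHCs and 1572 and 1590 CPM in IHCs. The cell cycle inhibitor Cdkn1b (p27Kip1) had 408 and 267 CPM in SCs, against 3.17 and 5.26 CPM in OHCs (-6.31 ± 0.95, FDR 0.00240). The aspartyl protease Bace2 had 155 and 619 CPM in SCs and no read in OHCs, at least 1980-fold lower. Cd44, a hyaluronan receptor of pillar cells, had 39.1 and 50.4 CPM in SCs and 0 and 1 read in OHCs (FDR 0.00516, counting interval of the ratio 282 to 62019).

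Of 19 tested genes of potassium uptake and glia-like transport, 4 were lower in OHCs, 1 was higher and 14 were not called (median -1.45). The inward rectifier subunit Kcnj16 had 1871 and 2061 CPM in SCs, against 0.793 and 0.800 CPM in OHCs (-11.26 ± 2.12, FDR 0.00846, and 0.0512 without OHC day 21), while its partner Kcnj10, at 367 and 867 CPM against 16.1 and 0.295 CPM, was not called (FDR 0.144). The water channel Aqp4 was lower by 10.78 ± 2.12 and glutamine synthetase (Glul) by 4.55 ± 0.85. Of 3 tested connexins, Gjb2 at 124 and 393 CPM in SCs against 0.793 and 0.379 CPM and Gjb6 at 185 and 313 CPM against 8.55 and 0.421 CPM were lower in OHCs. Gjb6 lost its call without SC day 26 (FDR 0.0587), and the other 8 listed connexins had too few reads to be tested. The sodium pump subunit Atp1b1 was lower (-4.34 ± 0.57, FDR 0.00122). The higher gene was the inward rectifier Kcnj13, at 114 and 58.7 CPM in OHCs against 2 and 10 reads in SCs (8.85 ± 2.08, FDR 0.0255), and it lost its call without OHC day 21, SC day 26 or SC day 27 (FDR 0.0556 to 0.0933).

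Tubulin and matrix genes were more often called lower than higher, and intermediate filament genes were called in both directions. Of 21 tubulin and microtubule genes, 5 were lower and 1 higher. Tubb2b had 81.1 and 97.3 CPM in SCs, against 1.5 and 0.758 CPM in OHCs (-6.31 ± 1.02, FDR 0.00386), and the tubulin-binding protein stathmin (Stmn1) 68.8 and 343 CPM against 0.970 and 1.60 CPM (-7.31 ± 1.34, FDR 0.00742). Tuba8 was the higher gene, at 289.5 and 209 CPM in OHCs against 2 and 0 reads in SCs (FDR 0.000626, counting interval of the ratio 2076 to 61917), with IHCs at 129 and 150.3 CPM. Tuba1a had like levels, 201 and 220.2 CPM in OHCs and 207 and 259.9 CPM in SCs. Without OHC day 21 the lower tubulin genes were 2 and without SC day 26 they were 3.

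Of 14 intermediate filament genes, 2 were lower in OHCs, 2 were higher and 10 were not called (median -1.54). Among all genes, 4.0% were lower and 4.01% higher. Keratin 19 (Krt19), an epithelial intermediate filament, had 43.9 and 62.1 CPM in SCs and no read in OHCs, at least 271-fold lower. Vimentin (Vim) was lower as well, at 1.68 and 2.36 CPM against an uneven 47.4 and 1139 CPM (FDR 0.0440), and lost its call without OHC day 21, OHC day 22 or SC day 26 (FDR 0.115 to 0.216). The higher genes were the neurofilament chains Nefm, at 96.5 and 39.2 CPM against 0.400 and 0.106 CPM (8.10 ± 1.04, FDR 0.00102), and Nefl, at 19.0 and 33.1 CPM against 0.533 and 0.0266 CPM (6.60 ± 1.51, FDR 0.0224). Of 22 matrix genes, 8 were lower and none higher. The tectorial membrane gene Tectb had 292 and 331 CPM in SCs, against 0.265 and 0.253 CPM in OHCs (-10.21 ± 1.61, FDR 0.00324), although P7 OHCs held 624 and 1611 CPM. The laminin chain Lamc1 was at 187 and 189.6 CPM against 0.353 and 0.716 CPM (-8.41 ± 0.90, FDR 0.000299), otogelin (Otog) at 961 and 1079 CPM against 7.76 and 5.6 CPM, and Sparc, a secreted matrix glycoprotein, at 2122 and 6383 CPM against 44.4 and 10.2 CPM. Otog lost its call without OHC day 21 (FDR 0.0570), and the matrix count fell from 8 to 3 there.

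Among called genes with at least 50 CPM and no overlap, the largest rises were nearly or wholly unread in SCs, and the largest falls unread in OHCs. A ranking by fold change favours such genes. Many were read in other cell types of the series: Irx2 had 43.9 and 25.8 CPM in IHCs, and Lum 178 and 6.60 CPM in converted cells. Among the 15 largest rises, 14 had no SC read. Cables1 led, with 807 and 289.7 CPM in OHCs, at least 5152-fold higher than SCs. C1ql1, a secreted C1q-like protein of synapses, had 295 and 169 CPM, at least 2180-fold higher, while IHCs had 0.101 and 0.0344 CPM and P7 OHCs 0.336 and 0 CPM. The homeobox gene Irx2 was at 166 and 140.2 CPM and the transporter Spns3 at 170.1 and 155 CPM, at least 1439-fold and 1526-fold higher. Elovl2, which lengthens polyunsaturated fatty acids, had 531 and 248 CPM and 1 SC read (counting interval of the ratio 4204 to 925080). Chrnb4, Serpina1f, Pgap3 and Gm16765 lost their calls without OHC day 21, which held most of their reads. Their differences there were 12.37, 11.88, 9.61 and 9.87. Chrnb4 and Gm16765 also lost their calls without either SC library, and Pgap3 without SC day 26.

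By the same ranking, which favours genes unread on 1 side, all of the 15 largest falls had no OHC read. Lumican (Lum), a matrix proteoglycan, had 684 and 716 CPM in SCs, at least 3581-fold lower in OHCs. Anxa2, a membrane-binding annexin, had 737 and 238 CPM, Alox12e, a lipoxygenase, 298 and 632 CPM, and the desmosomal protein Dsp 214 and 62.2 CPM, with at least 2494-fold, 2380-fold and 707-fold lower levels in OHCs. In P7 OHCs, Lum was at 21.6 and 50.2 CPM, Anxa2 at 1.14 and 0.246 CPM, Alox12e at 0.470 and 0.355 CPM and Dsp at 0.134 and 0.0546 CPM. Among these 15, Ces1d, Cenpm, Clic1, Kcnj15, Mgst1 and Nrarp each lost the call without at least 1 library.

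By number of reads, not corrected for gene length, the called genes that filled OHC libraries included Ocm, Lmo7, Dst, Strbp, Myo15, Sorbs2, Akap9, Slc26a5 and Lpin2. Lmo7, a junction-associated actin-binding protein, had 7884 and 5485 CPM against 91.8 and 39.3 CPM (6.67 ± 0.59, FDR 9.37e-05), and dystonin (Dst), a cytoskeletal linker, 7547 and 4738 CPM against 392.5 and 203 CPM (4.37 ± 0.47, FDR 0.000299). Lpin2, a phosphatidate phosphatase, was at 3702 and 2729 CPM against 140.1 and 142 CPM (4.51 ± 0.43, FDR 0.000144), with IHCs at the SC level, 141 and 166 CPM. The SC libraries were filled by S100a1, Skp1a, Zbtb20, Sparc, Dbi, Scd1, Clu, Igfbp5, Epyc and Itih5. Epiphycan (Epyc), a small leucine-rich proteoglycan, had 2660.5 and 2767 CPM in SCs and 3 and 4 reads in OHCs (FDR 0.0194, and 0.0746 to 0.0940 without either OHC library), and Dbi, which binds acyl-CoA, 4289.6 and 4096 CPM against 32.3 and 19.3 CPM (-7.35 ± 1.17, FDR 0.00349). Clu and Scd1 also lost their calls without either OHC library. Clu lost its call without SC day 26 too, with a difference of -3.48 there.

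Among 27 genes of glycolysis and fuel use, 3 were higher in OHCs and 1 lower, against 4.01% and 4.0% of all genes. The count of 1 lower gene is near that share. The platelet-type phosphofructokinase Pfkp had 312 and 165 CPM against 0.311 and 0.345 CPM (9.48 ± 0.95, FDR 0.000205), and the mitochondrial creatine kinase Ckmt1 1292 and 744 CPM against 0.311 and 3.11 CPM (9.20 ± 1.17, FDR 0.000958). Aldolase C (Aldoc) was lower, at 0.529 and 0.884 CPM against 138 and 167 CPM (FDR 0.00794, and 0.0501 without OHC day 21). Of 83 nuclear genes of oxidative phosphorylation, Cyc1 alone was called (2.66 ± 0.65, FDR 0.0302), and the summed levels were close, 5894 and 5765 CPM in OHCs and 6036 and 7130.5 CPM in SCs. The Cyc1 call was lost without OHC day 21, SC day 26 or SC day 27 (FDR 0.103 to 0.175).

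Cytosolic ribosomal protein genes were lower in OHCs as a group: 36 of 80 were lower, none higher, with a median of -1.98, and in 76 of 80 both OHC libraries were below both SC libraries, against 25.3% of all genes. Rpl31 had 27.3 and 55.5 CPM in OHCs and 469 and 634 CPM in SCs (-3.73 ± 0.62, FDR 0.00436), and Rps25 89.9 and 108 CPM against 578 and 588 CPM (-2.56 ± 0.44, FDR 0.00529). The summed level was 5269 and 6121 CPM in OHCs and 18379 and 27812 CPM in SCs. P7 OHCs held 14440 and 14055 CPM and IHCs 7396 and 8763 CPM, both between the mature OHCs and the SCs. Converted cells held 13389 and 14534 CPM. Every library of the SC run of sample numbers was thus above every library of the OHC run, and the part of the run was not tested. The number of lower genes fell to 11 without SC day 26, to 13 without OHC day 21 and to 10 when only these 4 libraries were fitted. Ribosomal protein genes have many processed pseudogenes, and how the counting split shared reads was not tested.

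Immediate early and stress genes, which dissociation of tissue induces, were lower in OHCs in 11 of 26 cases and higher in none (median -6.61). Jun had 464 and 1303 CPM in SCs, against 4.50 and 4.97 CPM in OHCs (-7.54 ± 0.91, FDR 0.000709), Fos 102 and 907 CPM against 0.793 and 0.253 CPM (-9.98 ± 1.38, FDR 0.00160), and Egr1 911 and 2802 CPM against 9.96 and 1.35 CPM (-8.37 ± 1.30, FDR 0.00309). The whole list, stress genes included, summed to 3305 and 12617 CPM in SCs, against 1301 and 1539 CPM in OHCs. The sums were 1891 and 1531 CPM in P7 OHCs and 2820.0 and 5493 CPM in IHCs. The chaperone Hsp90aa1 made up most of the OHC sums, with 1066 and 1312 CPM in OHCs against 419 and 1051 CPM in SCs. It was not called, and the OHC sums therefore say little about the other genes of the list. The 2 SC libraries differed widely here, and 7 genes were called without SC day 26 and 7 without OHC day 21. Whether handling contributes to the differences between SCs and OHCs was not tested.

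**Figure D5:**
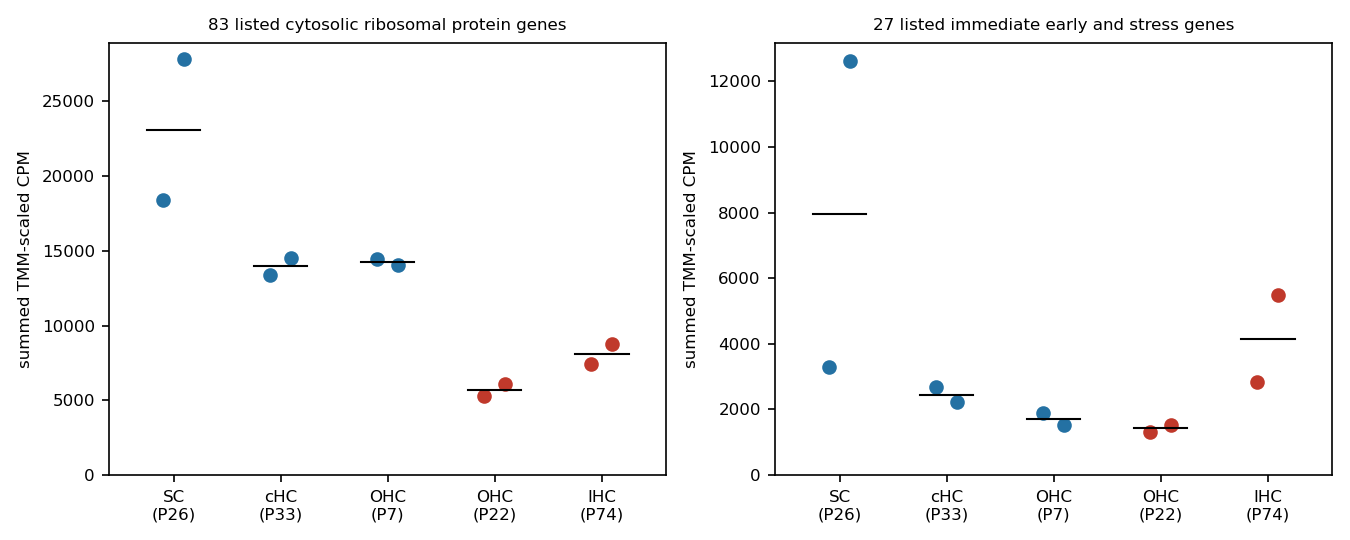
Summed TMM-scaled CPM (y axis, from 0) of 83 cytosolic ribosomal protein genes (left) and 27 immediate early and stress genes (right) in each of the 10 libraries, with a line at the mean of each pair; blue points carry the lower run of sample numbers and red points the higher run. Mature OHCs have the lowest ribosomal sums, 5269 and 6121, and the SC libraries the highest.

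Of 13 tested cell cycle inhibitors and D cyclins, 2 were lower in OHCs and 1 was higher, with a median of -3.81. Other cell cycle genes were not examined as a list. The lower genes were Cdkn1b, given above, and Cdkn1a, at 119.7 and 222 CPM in SCs against 4.67 and 2.15 CPM in OHCs (-5.66 ± 0.91, FDR 0.00386). The higher gene was Cdkn2d (p19Ink4d), at 97.0 and 126 CPM in OHCs against 15.4 and 15.9 CPM in SCs (2.83 ± 0.64, FDR 0.0210). The Cdkn2d call was lost without SC day 26 (FDR 0.0947) or SC day 27 (FDR 0.104). The other 10 tested genes of the list were not called.

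Markers of other cells were checked over whole lists. Blood, leukocyte, endothelial, Schwann cell and stria vascularis lists had no called gene by edgeR among 3, 4, 2, 9 and 5 tested, respectively. Of these 23 genes, 5 had an unadjusted edgeR p under 0.05, against 4340 of all 16891 genes. DESeq2 called 4 of them higher and 3 lower, against 2094 and 2066 of all 16891 genes. The leukocyte genes C1qa, C1qc, Nkg7 and Ms4a1 were at 0 in all 4 libraries. The myelin list summed to 120.2 and 24.7 CPM in OHCs and to 218 and 272 CPM in SCs, and the leukocyte list to 0.176 and 8.76 CPM in OHCs and to 6.57 and 20.96 CPM in SCs. The other direction held for endothelial genes, with sums of 64.6 and 23.8 CPM in OHCs against 1.73 and 0.186 CPM in SCs, and for blood genes, with 28.5 and 7.16 CPM against 0.267 and 0.372 CPM. Egfl7 made up 64.0 and 11.6 CPM of the endothelial sums in OHCs (FDR 0.0503), while Cdh5, Cldn5, Kdr and Tie1 had no OHC read. Alas2 made up 28.5 and 5.73 CPM of the blood sums in OHCs, and the globin genes found had at most 0.800 CPM each there. The stria vascularis list summed to 12.96 and 4.84 CPM in OHCs and to 69.1 and 0.956 CPM in SCs.

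Of 12 tested spiral ganglion neuron markers 4 were higher in OHCs, namely Calb2, Snap25, Nefm and Nefl (the last not without SC day 26, FDR 0.0609), and in all 12 both OHC libraries were above both SC libraries, against 25.2% of all genes (median difference 6.32). The list summed to 464 and 340 CPM in OHCs, 4.04 and 1.33 CPM in SCs, against 2111 and 2494 CPM in IHCs. Calb2 and Snap25 are also on the hair cell lists. Prph, which was not tested, had no read in OHCs, and Tubb3 had at most 1.68 CPM there. For IHC markers, 7 of 9 were higher in OHCs than in SCs, with sums of 2415 and 1533 CPM in OHCs, 13.2 and 13.2 CPM in SCs, against 9566 and 9126 CPM in IHCs. Dnm3 alone held 1969 and 933 CPM of the OHC sums. Without SC day 26 the number called was 4 in place of 7. The IHC-defining factor Tbx2 was 1 of the 7, at 3.44 and 0.632 CPM in OHCs and no read in SCs (FDR 0.0161, and 0.0604 without SC day 26), beside 272 and 198 CPM in IHCs.

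On the SC side, mesenchymal genes were uneven: Lum and Dcn (the last not without OHC day 21, OHC day 22 or SC day 26, FDR 0.0638 to 0.122) were lower in OHCs and Pdgfra was higher, at 401 and 250.5 CPM against 2 and 1 reads (counting interval of the ratio 2235 to 31674), while collagen genes Col1a1, Col1a2 and Col3a1 had at most 1.29 CPM in SCs and at most 3.29 CPM in OHCs. Of 6 tested markers of neighbouring Hensen and Claudius cells, 3 were lower in OHCs (Tectb, Nupr1 and Lgr5, the last not without either OHC library, FDR 0.0609 to 0.0873), and the list summed to 3611 and 4822 CPM in SCs and to 951 and 1138 CPM in OHCs. Fbxo2 made up most of both sums, at 2957 and 3412 CPM in SCs and at 942 and 1116 CPM in OHCs. The part of other cells in the OHC and SC libraries was not tested.

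The IHC libraries, which carry the same run of sample numbers as the OHCs, served to place the differences. Between OHCs and IHCs, 82 genes were higher in OHCs (0.485%) and 165 lower (0.977%). Among the 678 genes higher in OHCs than in SCs, 65 were also higher than in IHCs, 8 were lower than in IHCs and 605 were not called against IHCs. The median of their mean levels was 167 CPM in OHCs, 61.7 CPM in IHCs, 72.3 CPM in P7 OHCs and 0.761 CPM in SCs. Among the 676 genes lower in OHCs than in SCs, 133 were also lower than in IHCs and 543 were not called, with medians of 0.675 CPM in OHCs, 30.4 CPM in IHCs, 16.7 CPM in P7 OHCs and 123 CPM in SCs. The comparisons share the OHC libraries, and the IHC libraries held SC marker reads (1572 and 1590 CPM in sum), so these counts are given as a description. Without OHC day 21 there were 41 higher and 39 lower genes, and without OHC day 22 there were 169 higher ones; without IHC day 74 or IHC day 75 there were 52 higher ones each.

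By list, 9 of 12 OHC markers were higher in OHCs than in IHCs, and these include prestin, which chose the cells. By edgeR none of 16 pan-hair-cell markers and none of 14 mechanotransduction genes were higher, which is near the 0.485% of all genes called higher. The median differences from IHCs were 0.245 and 1.16 for these lists, and 1 pan-hair-cell marker was lower. Of 27 SC markers, 7 were lower in OHCs than in IHCs, among them Gjb2, at 611 and 468 CPM in IHCs. For prestin, Lmod3, Lbh and Lpin2, IHCs stood at or near the SC level, while Pou4f3, Ptprq, Clrn1, Homer2 and Kcna10 had differences between OHCs and IHCs of 0.34 ± 0.43, -0.06 ± 0.32, 0.74 ± 0.48, 0.66 ± 0.40 and -0.77 ± 0.46.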

How the data were processed

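RNA of hand-picked cells was amplified by SPIA (NuGEN Ovation V2) and sequenced as paired-end reads. Per the labels and the study's methods, the authors called bases with CASAVA 1.7, mapped reads to mm9 with STAR and BWA and deposited raw HTSeq counts per gene symbol, 1 file per library. Versions of STAR, BWA and HTSeq and the strand setting are not given in the sources used here. The study calls the pair of libraries of each cell type biological duplicates and pooled a small number of cells for each, so p-values measure the spread between such pools. The file of each library was identified by its name, which matched the study's per-library values for all 10 libraries. No pair of files was identical, and no column was left unused. HTSeq's 5 closing totals stayed out of library sizes.

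Counts of all 10 libraries were fitted with edgeR 4.0.16 (quasi-likelihood, TMM, filterByExpr by cell type, 5 residual degrees of freedom, 16891 genes, 2-sided tests, Benjamini-Hochberg adjustment) in R 4.3.3. Standard errors are the fold change divided by the root of the F statistic. limma-voom (limma 3.58.1), DESeq2 1.42.0, other filters and normalization, a fit to the compared libraries alone, files as attached to the records, thinning to the smallest library and leaving out each library were alternatives. The fit was tested on simulated data with 200 changed genes. Floors of 3 counts and 95% intervals cover counting error only. Named genes were list members, the 15 largest called rises and falls with at least 50 CPM and no overlap, the 10 most abundant called genes of each group, and genes named in the study. The comparison and the lists were chosen with earlier results of these data known. Coordinates of genes are mm9 (GENCODE M1), and promoters are RefSeq on GRCm38.p6. Figures used matplotlib 3.10.9. A few list genes are not reported here by name.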

Additional observations from a re-analysis of the deposited data

Results flagged for a closer look

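Reads that mapped outside counted genes made up 61.8% of aligned reads in OHC day 21 and 59.6% in OHC day 22. These reads enter no comparison, and they came up because their share was higher than in both SC libraries, at 31.5% and 35.7%. IHCs had 48.4% and 47.9%, P7 OHCs 35.7% and 37.2%, and converted cells, which share the SC run of sample numbers, 46.8% and 47.9%. What these reads are, and their part in the differences between OHCs and SCs, was not tested.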

How the results depend on the processing

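Against 678 higher and 676 lower genes in OHCs relative to SCs, DESeq2 called 2094 and 2066, edgeR with no filter 1223 and 1308, and a fit to the compared libraries alone 441 higher genes. With limma-voom, the tool the study used, 946 higher and 951 lower genes were called. Of these, 594 and 541 were shared with the 678 and 676. Leaving out 1 library gave 448 to 848 higher and 302 to 750 lower genes. With the files as attached to the records edgeR called 0 in each direction (2514 at an unadjusted p under 0.05), and 6 of the called genes reported changed sign: Lhx3 (-0.021), Calb2 (-0.69), Chrna9 (-0.31), Gpr98 (-0.61), Myo3a (-0.34) and Pvalb (-1.30). That setting puts another sample's file in the SC group. Against 82 higher and 165 lower genes relative to IHCs, DESeq2 called 903 and 1139, limma-voom 168 higher, no filter 3.9e2 (to 2 digits) and 765, the filter at 35 CPM 137 and 295, the compared libraries alone 50 and 67, and the attached files 0 and 0 (1608 at an unadjusted p under 0.05). Leaving out 1 library gave 41 to 169 and 39 to 212. Except for the attached files, the cause of these shifts was not tested. In 12 settings without the attached files, 285 of the higher and 203 of the lower genes were called every time, and of 222 called list or named genes 134 were called in all 4 fits that left out a library. No paired analysis was possible because the groups share no replicate numbers. With 2 libraries a group, and OHC day 21 the least evenly spread, differences near the threshold are the least certain.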
